A study of Rattus norvegicus with 20 samples.

Results

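Lipc, Pltp, Apom, Apoa4 and Pla1a are 5 genes whose secreted products reshape lipoprotein particles, and they are described here in rat liver. They were selected on their measured expression in the 4 groups of rats, with no threshold or single comparison recorded, and were taken by platform gene symbol out of 14557 genes with a single symbol, and all 5 were among the 9481 genes that passed the filter on low values. Each was read by 1 probe set. The values are log2 expression after RMA, a method that corrects background and brings the arrays to a common distribution, so a difference of 1 is a doubling. A level of 1 gene cannot be set against that of another.

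The labels describe the animals as male ZDF rats of the Zucker strain, whereas the study's methods set lean control rats apart from ZDF rats with an inherited tendency to diabetes. In ZDF rats, animals homozygous for a defect of the leptin receptor become obese and lean animals are not homozygous for it. The labels give the leptin receptor genotype of no group. There were 4 groups of 5 rats: lean control rats kept on standard chow, obese rats given a stock diet for 6 weeks, rats given rosiglitazone, an insulin-sensitising agonist of the nuclear receptor PPARgamma, and rats given resveratrol, a plant polyphenol. All rats were housed singly under a reverse 12 h light cycle. The labels give neither age, dose, duration nor body type for the rosiglitazone and resveratrol rats, and the study's methods do not describe these rats. The paper places its rat data in a dietary and drug intervention in diabetic rats, and names neither rosiglitazone nor resveratrol. The labels do not say whether the obese rats received a vehicle, and nothing states that arrays were run in batches.

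The liver releases lipoproteins that carry triglyceride and cholesterol through the blood, and enzymes and transfer proteins then alter these particles in the plasma. Lipases remove triglyceride and phospholipid from them, phospholipid transfer moves surface lipid from shrinking particles to high density lipoprotein (HDL), and apolipoproteins set which receptors and enzymes a particle meets. Lipc encodes hepatic lipase, which hydrolyses triglyceride and phospholipid of HDL and of remnant particles. Pla1a encodes a secreted phospholipase A1 of the same lipase family that acts on phosphatidylserine and releases lysophosphatidylserine. Pltp encodes the phospholipid transfer protein. Apom encodes a lipocalin of HDL that carries sphingosine 1-phosphate, and Apoa4 encodes an apolipoprotein made by the intestine and, in rats, also by the liver.

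The sequences around the start sites are shown for the 3 genes in which the letters searched for were found, since members that differ in the same groups invite a look at shared sequence. The windows are 250 bases before and 50 bases after the RefSeq start site in assembly GRCr8, written 5′ to 3′ on the strand of the gene. The search covered AGGTCA and GGGTCA, hexamers bound by nuclear receptors, and GTTAAT, the core of sites bound by the hepatic factor HNF1, on both strands, with no overlap between the matches. Capitals mark the matches. The Lipc window is chr8:80516236-80516535 on the minus strand, the Apoa4 window chr8:55435529-55435828 on the plus strand and the Apom window chr20:3695368-3695667 on the plus strand.
Lipc: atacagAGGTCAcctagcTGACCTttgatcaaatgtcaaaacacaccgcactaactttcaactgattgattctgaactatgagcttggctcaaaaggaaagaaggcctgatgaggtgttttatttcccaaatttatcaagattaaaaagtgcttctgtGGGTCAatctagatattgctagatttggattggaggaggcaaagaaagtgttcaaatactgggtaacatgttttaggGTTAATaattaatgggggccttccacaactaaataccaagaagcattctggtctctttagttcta
Apoa4: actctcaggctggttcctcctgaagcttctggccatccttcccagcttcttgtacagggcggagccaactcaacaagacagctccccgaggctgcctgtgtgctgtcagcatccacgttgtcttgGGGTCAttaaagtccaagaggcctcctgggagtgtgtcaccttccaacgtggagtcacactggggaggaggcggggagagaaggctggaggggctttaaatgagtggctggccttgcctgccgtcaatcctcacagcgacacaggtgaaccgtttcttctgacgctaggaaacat
Apom: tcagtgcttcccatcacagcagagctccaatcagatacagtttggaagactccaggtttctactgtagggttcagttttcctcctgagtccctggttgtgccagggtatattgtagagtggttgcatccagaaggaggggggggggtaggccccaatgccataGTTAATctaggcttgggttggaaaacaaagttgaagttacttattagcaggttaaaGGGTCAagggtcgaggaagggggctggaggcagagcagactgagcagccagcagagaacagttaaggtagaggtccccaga
The Lipc window held 4 matches, AGGTCA on either strand with 6 bases between them, GGGTCA and GTTAAT. Apom held GTTAAT and GGGTCA, Apoa4 held GGGTCA, and the windows of Pltp and Pla1a held none of these letters. Of 33469 windows of the same length, 16.2% held AGGTCA, 13.8% held GGGTCA and 7.45% held GTTAAT. The matches are a description of letters and were not tested as binding sites.

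The mean of 7 hepatocyte markers was 10.4 to 10.8 in each rat, so the defining genes of liver were present in all livers. The arrays had medians of 2.36 to 2.53 and pairwise correlations of 0.947 to 0.982. Lean control rat 3 stood apart from the other lean rats in several of the genes below, and several results that rest on it are given with and without it. Correlations with marker lists and with the genes most like each of the 5 are given over all 20 rats only. Macrophage markers, among them those of the Kupffer cells resident in liver, and endothelial markers differed between groups. Their mean over 13 markers was 5.11 to 5.74 in lean control rats, 4.94 to 5.14 in obese rats, 5.62 to 6.15 in rosiglitazone rats and 5.02 to 5.30 in resveratrol rats. By limma, 11 of these 13 passed as higher in rosiglitazone than in obese livers and 3 as lower in obese than in lean livers. The first count ran from 7 (without rosiglitazone rats 4 or 5 or obese rats 3 or 4) to 10 with 1 rat left out. The second ran from 1 (without lean control rats 1 or 2 or obese rat 1) to 6 (without lean control rat 5), and was 0 with only the compared groups in the fit. Between rosiglitazone and resveratrol livers 8 of the 13 passed as higher with rosiglitazone, and 4 to 7 with 1 rat left out. Of all genes tested, 1.04%, 1.13% and 0.517% passed in these 3 directions. The marker lists were chosen with earlier results of these data known, so these shares are a description. All 7 measured endothelial markers (of 10 listed) were lower on average in obese than in lean livers, with a median difference of −0.51. Of these, the junction gene Cdh5 (−0.51, SE 0.13, limma adjusted p = 0.0379) and the sinusoidal receptor Lyve1 (−0.55, SE 0.12, adjusted p = 0.0251) passed, and their 7-gene mean was 5.13 to 5.34 in lean, 4.68 to 4.88 in obese, 4.71 to 5.25 in rosiglitazone and 4.69 to 4.98 in resveratrol rats. The count of 2 was 0 with only the compared groups in the fit and without lean control rats 1, 2 or 4 or obese rats 2 or 4, and 1 without obese rats 1 or 3. Elsewhere Cd4 passed as lower in obese than in lean livers, and Cd4, the adipocyte marker Cfd and the endothelial marker Vwf passed as higher in rosiglitazone than in obese livers. In that comparison 2 of the 4 tested adipocyte markers were higher on average and 2 lower, and only Cfd passed. All 7 endothelial markers were higher on average and only Vwf passed. The call of Vwf was lost with no filter, with arrays centred on their median, with the replicate number as a block and without any 1 rat of either group except obese rat 2. The part of the macrophage and endothelial markers in the differences of Pltp, Pla1a and Apoa4 between obese and lean livers was not tested. In whole tissue, a change in the number of cells of a type and a change of RNA per cell cannot be told apart.

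In rosiglitazone livers the transfer protein Pltp, the HDL protein Apom and the phospholipase Pla1a were higher than in obese livers, while hepatic lipase and Apoa4 were lower. The ranges of the rosiglitazone and obese rats did not overlap for any of the 5, against 3.91% of all 9481 tested genes (2.23% higher and 1.69% lower). The same 5 directions and the same lack of overlap were seen against resveratrol rats (3.34% of tested genes, 1.67% higher and 1.68% lower). Between resveratrol and obese rats all 5 ranges overlapped (1.18% of tested genes did not), and so did those between obese and lean rats (3.53% did not). At an adjusted p under 0.05, limma called 1.5% of tested genes between rosiglitazone and obese livers, 0.886% between rosiglitazone and resveratrol livers, 1.81% between obese and lean livers and 0.0105% between resveratrol and obese livers. Since the 5 genes were chosen with these groups in view, their levels and differences are a description and carry no test. Comparisons that share a group share its rats.

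**Figure D1:**
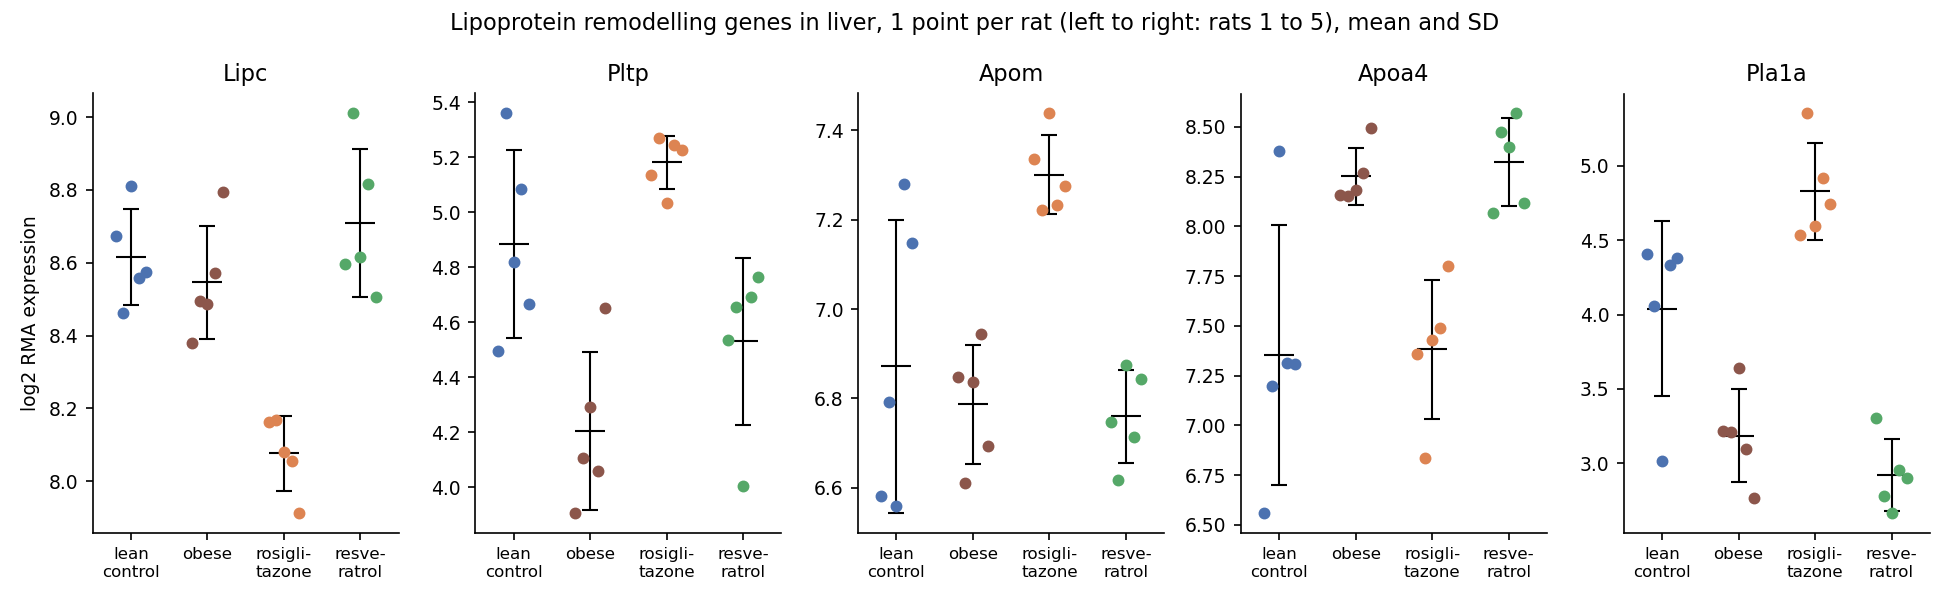
Log2 expression (y axis, a separate scale for each gene) of the 5 genes in 4 groups (x axis), with 1 point per rat and the mean and SD as a bar (n = 5 rats). The rosiglitazone points lie outside the range of the obese and the resveratrol points in every panel, and lean control rat 3 lies with the obese rats for Apoa4 and Pla1a.

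Among the lipases, Pla1a had the widest separation. Its level in rosiglitazone rats 1 to 5 was 4.54, 5.35, 4.59, 4.92 and 4.74. In obese rats 1 to 5 it was 3.22, 3.21, 3.64, 3.10 and 2.77, and in resveratrol rats 3.31, 2.78, 2.67, 2.96 and 2.90. Every rosiglitazone rat was thus above every obese and resveratrol rat, with gaps of 0.89 and 1.23 between the nearest rats. The lean control rats stood at 4.41, 4.05, 3.02, 4.33 and 4.38, so that 4 of them lay above all obese rats and rat 3 lay among these. The group means ran from rosiglitazone (4.83 ± 0.33, mean ± SD, n = 5 here and below) through lean (4.04 ± 0.59) and obese (3.19 ± 0.31) to resveratrol (2.92 ± 0.24). Neighbours in that order overlapped except rosiglitazone and lean rats. The difference between rosiglitazone and obese livers was 1.64 (SE 0.22), a ratio of 3.12, and that between obese and lean livers −0.85 (SE 0.22), or −1.11 without lean control rat 3. By its mean Pla1a lay above 40.0% of tested genes, and array signals understate changes of dim genes.

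Hepatic lipase differed in rosiglitazone rats from all other rats. Lipc stood at 8.16, 8.17, 8.08, 8.06 and 7.91 in rosiglitazone rats 1 to 5. The lowest of the other 15 rats was obese rat 1 at 8.38, so no rat of another group reached the rosiglitazone range. Obese rats stood at 8.38, 8.50, 8.49, 8.57 and 8.79, lean control rats at 8.67, 8.46, 8.81, 8.56 and 8.57, and resveratrol rats at 8.60, 9.01, 8.62, 8.82 and 8.51. These 3 groups overlapped one another (means of 8.55 ± 0.15, 8.62 ± 0.13 and 8.71 ± 0.20), against 8.08 ± 0.10 with rosiglitazone. Rosiglitazone livers differed from obese livers by −0.47 (SE 0.11, a ratio of 0.722) and from resveratrol livers by −0.63 (SE 0.11), while obese and lean livers differed by −0.07 (SE 0.11). The residual SD of Lipc within groups was 0.15, lower than in all but 11.2% of tested genes, so these small differences stand beside a small spread.

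The phospholipid transfer protein gene was higher with rosiglitazone and lowest on average in obese rats. Pltp stood at 5.14, 5.27, 5.03, 5.24 and 5.23 in rosiglitazone rats 1 to 5 and at 3.91, 4.11, 4.29, 4.06 and 4.65 in obese rats. All rosiglitazone rats were above all obese rats and also above all resveratrol rats (4.54, 4.66, 4.01, 4.69 and 4.76). Lean control rats spread widely, at 4.49, 5.36, 4.82, 5.08 and 4.67, and their range contained that of the rosiglitazone rats. The means fell from 5.18 ± 0.10 with rosiglitazone to 4.88 ± 0.34 in lean, 4.53 ± 0.30 in resveratrol and 4.20 ± 0.29 in obese livers, and each pair of neighbours in that order overlapped. The difference was 0.98 (SE 0.17, a ratio of 1.97) between rosiglitazone and obese livers and −0.68 (SE 0.17, a ratio of 0.624) between obese and lean livers. Resveratrol livers differed from obese livers by 0.33 (SE 0.17), the highest value of the 5 genes in that comparison.

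Of the apolipoproteins, Apoa4 differed between obese and lean livers as well as with rosiglitazone. Its level was 8.16, 8.15, 8.18, 8.27 and 8.49 in obese rats 1 to 5 and 8.07, 8.47, 8.40, 8.57 and 8.12 in resveratrol rats. It was 7.36, 6.84, 7.43, 7.49 and 7.80 in rosiglitazone rats, all below every obese and resveratrol rat. Lean control rats stood at 6.56, 7.20, 8.38, 7.31 and 7.31, so that 4 of 5 fell in or below the rosiglitazone range and rat 3 fell in the obese range. The means of 8.32 ± 0.22 (resveratrol) and 8.25 ± 0.14 (obese) were close, as were those of 7.38 ± 0.35 (rosiglitazone) and 7.35 ± 0.65 (lean). Obese livers differed from lean livers by 0.90 (SE 0.23), or 1.16 without lean control rat 3, and rosiglitazone from obese livers by −0.87 (SE 0.23, a ratio of 0.547). Apoa4 is known as an intestinal gene. Of 5 enterocyte markers, Vil1, Alpi and Lct did not exceed 2.23 in any rat, below the lowest array median, while Fabp2 lay between 2.17 and 4.81 and Cdx2 between 2.64 and 3.60. The mean of the 5 was 2.21 to 2.33 in lean, 2.30 to 2.71 in obese, 2.08 to 2.65 in rosiglitazone and 2.32 to 2.58 in resveratrol rats, and its part in Apoa4 was not tested.

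Apom stood at 7.34, 7.22, 7.44, 7.23 and 7.27 in rosiglitazone rats 1 to 5. Obese rats stood at 6.85, 6.61, 6.84, 6.94 and 6.69 and resveratrol rats at 6.75, 6.62, 6.88, 6.71 and 6.84, all below every rosiglitazone rat. In lean control rats the levels were 6.58, 6.79, 6.56, 7.28 and 7.15, and rat 4 alone reached the rosiglitazone range. The mean was 7.30 ± 0.09 with rosiglitazone, against 6.87 ± 0.33 in lean, 6.79 ± 0.13 in obese and 6.76 ± 0.10 in resveratrol livers, which overlapped one another. The difference between rosiglitazone and obese livers was 0.51 (SE 0.13, a ratio of 1.43), that between rosiglitazone and resveratrol livers 0.54 (SE 0.13) and that between obese and lean livers −0.09 (SE 0.13).

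**Figure D2:**
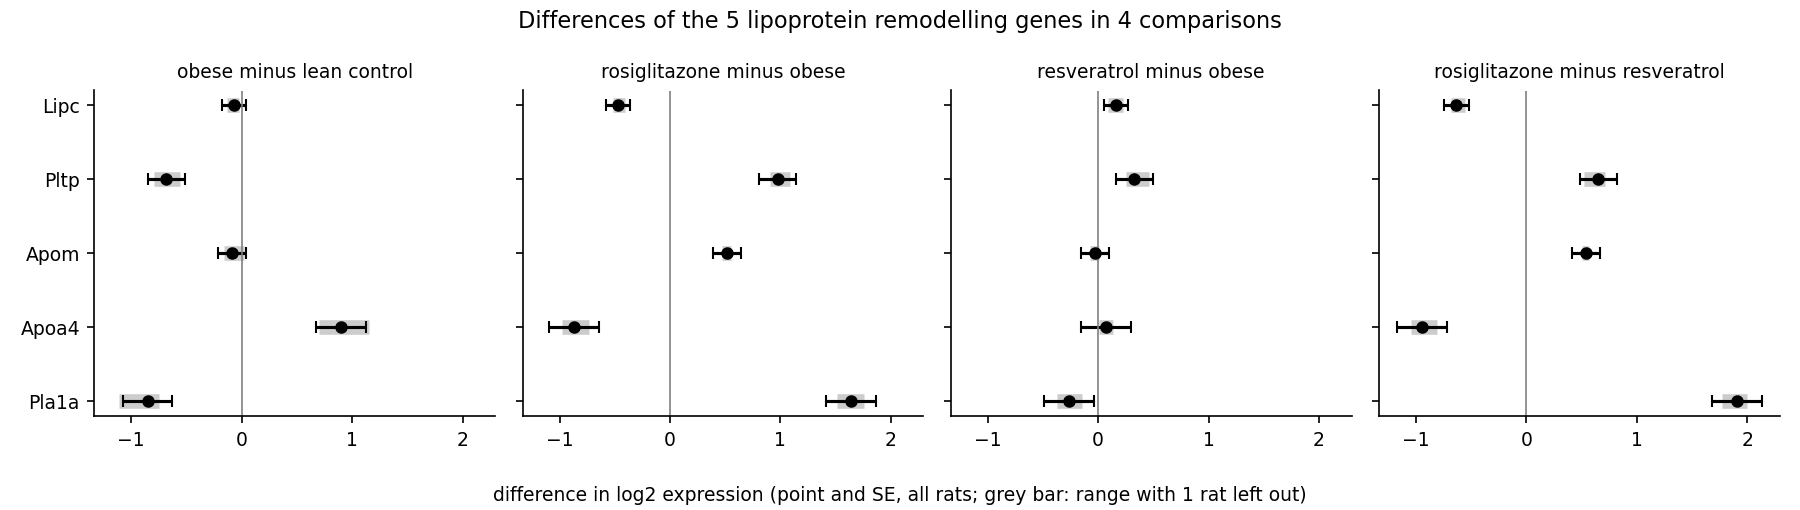
Difference in log2 expression (x axis) of the 5 genes (y axis) in 4 comparisons, with the SE of the fit as whiskers and a grey bar for the range of the difference when 1 rat of the compared groups was left out. With rosiglitazone against obese rats the 5 differences ran from −0.87 to 1.64, and against resveratrol rats from −0.94 to 1.91, with the same sign for each gene.

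Leaving out any 1 rat could change no sign for these 5 genes between rosiglitazone and obese livers, since their ranges did not overlap. The ranges of the differences are given for their width. Without 1 rat, the difference of Pla1a ran from 1.51 to 1.76, that of Pltp from 0.90 to 1.09 and that of Apom from 0.47 to 0.55. That of Lipc ran from −0.51 to −0.41 and that of Apoa4 from −0.97 to −0.73. Between obese and lean livers, Apoa4 ran from 0.70 to 1.16, Pla1a from −1.11 to −0.75 and Pltp from −0.79 to −0.56. Lipc ran from −0.13 (without obese rat 5) to −0.02 (without lean control rat 3), around −0.07 with all rats. Apom changed sign there (−0.16 to 0.02), as it did between resveratrol and obese livers (−0.07 to 0.01).

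Rat by rat, Apoa4 and Pla1a ran opposite to each other. Lean control rat 3 was the highest of the lean rats in Apoa4 and the lowest in Pla1a, and rosiglitazone rat 2 was the lowest of its group in Apoa4 and the highest in Pla1a. With group means removed, Pearson's r was −0.79 over 20 rats and −0.56 over the 19 rats without lean control rat 3, given as a description of 2 genes read from the same arrays. Of all pairs among the 5 genes this was the most extreme over 20 rats. The other pairs ran from −0.42 (Lipc and Apom) to 0.31 (Apom and Pla1a). Each of the 5 genes was also set beside the mean of each of 8 marker lists. With group means removed, r over these 40 pairs ran from −0.53 to 0.55, and its ends were Apoa4 and Pla1a with 4 cholangiocyte markers. These markers were dim. Cftr and Krt7 had means of 1.82 and 2.34, below the lowest array median, while Krt19 and Epcam had means of 2.79 and 4.54. With the 13 macrophage markers r was 0.52 for Pltp, −0.08 for Lipc, −0.44 for Apom, 0.43 for Apoa4 and −0.47 for Pla1a. These values describe 20 rats read on shared arrays. The part of these markers in the levels of the 5 genes was not tested.

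**Figure D3:**
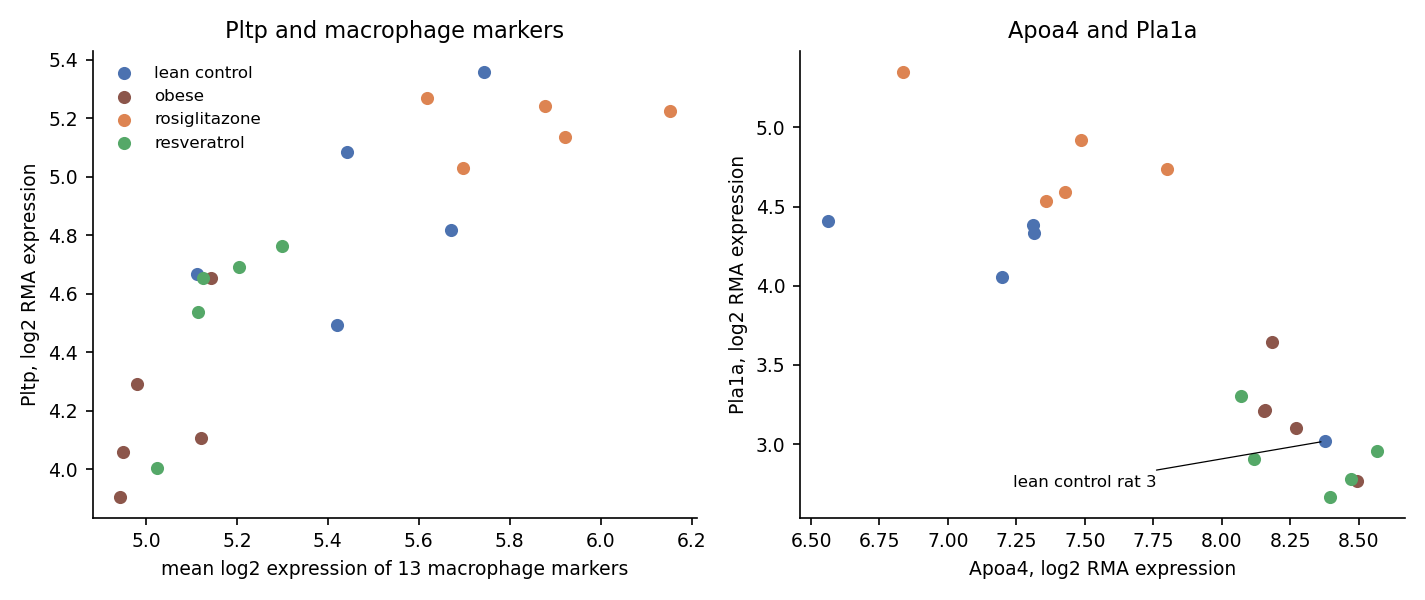
Left, log2 expression of Pltp (y axis) against the mean log2 expression of 13 macrophage markers (x axis). Right, log2 expression of Pla1a against Apoa4. Each point is 1 of 20 rats coloured by group, and lean control rat 3 (Apoa4 8.38, Pla1a 3.02) lies among the obese and resveratrol rats.

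Likeness to each of the 5 was sought among the other tested genes, leaving out symbols of unnamed loci, microRNAs and olfactory and vomeronasal receptors. It was measured by Pearson's r over the 20 arrays, which reflects differences between groups as well as between rats. The genes of highest r are named. For Pltp these were Cd68, a lysosomal protein of macrophages (r = 0.89), Vsir, an immune checkpoint receptor (0.86), and Fcer1g, the signalling chain of Fc receptors (0.85), and with group means removed r was 0.68, 0.76 and 0.45. For Apoa4 they were the mitochondrial genes Nnt, a transhydrogenase that makes NADPH (0.90), Acads, an acyl-CoA dehydrogenase of fatty acid oxidation (0.89), and Ndufb6, a subunit of respiratory complex I (0.89), with 0.77, 0.70 and 0.77 once group means were removed. For Pla1a they were Igfbp2, an IGF-binding protein (0.93), Serpina7, the thyroxine-binding globulin (0.86), and Sqle, the squalene epoxidase of cholesterol synthesis (0.85), with 0.68, 0.66 and 0.64. For Lipc they were C2cd2 (0.84), Hagh, a glyoxalase (0.82), and Bdh1, a ketone body dehydrogenase (0.81), and for Apom Rpl7a, a ribosomal protein (0.81), the orphan receptor Gpr27 (0.81) and the glucuronosyltransferase Ugt2b1 (0.79). For these last 6 genes r with group means removed was 0.22 to 0.56. Rpl7a and Ugt2b1 have near-identical relatives that the probes may not tell apart.

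Levels of the genes most like Lipc and Apom followed the same groups. Hagh was 7.08 ± 0.16 in rosiglitazone livers against 7.65 to 7.69 in the other 3 group means, and Bdh1 was 7.18 ± 0.26 against 7.80 to 7.97. Ugt2b1 was 8.09 ± 0.25 in rosiglitazone livers against 7.13 to 7.36 elsewhere. These genes were picked for their likeness, so their levels are a description.

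Of the genes beside the 5 on the chromosome, Zpr1 and Aif1 passed the test in a comparison. Taking the 2 nearest measured protein-coding genes on each side in RefSeq order, 18 of the 20 neighbours passed the filter on low values. Apoa5, which lies beside Apoa4 and encodes an apolipoprotein that promotes triglyceride clearance, differed by 0.13 (SE 0.17) between rosiglitazone and obese livers (limma adjusted p = 0.858) and by −0.28 (SE 0.17) between obese and lean livers (adjusted p = 0.443). Ctsa, the lysosomal carboxypeptidase gene next to Pltp, differed by 0.03 (SE 0.09, adjusted p = 0.938) and −0.26 (SE 0.09, adjusted p = 0.108) in the same comparisons. Zpr1, a zinc finger gene near Apoa4, was lower in obese livers (5.36 ± 0.14 against 5.85 ± 0.13, difference −0.49, SE 0.09, adjusted p = 0.0125), a call lost with only the compared groups in the fit (adjusted p = 0.0726). Aif1, which lies near Apom and is itself one of the macrophage markers above, was higher in rosiglitazone than in obese livers (4.33 ± 0.12 against 3.67 ± 0.26, difference 0.66, SE 0.17, adjusted p = 0.0450) and than in resveratrol livers (difference 0.97, adjusted p = 0.00488). The first of these 2 calls was lost with no filter, with arrays centred on their median, with the clock score and without any 1 rat of either group except obese rat 2 (adjusted p of up to 0.117). No other neighbour passed in any of the 4 comparisons, and 0 of 18 passed between resveratrol and obese livers, with an unadjusted p under 0.05 for 0.

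The remaining genes of lipoprotein metabolism were taken from a list of 78 arranged by role, of which 60 had a probe set with that symbol alone and 55 were tested. Few of them passed. The list was chosen with earlier results of these data known, so its shares beside those of all genes are a description. Between obese and lean livers 2 were higher and 2 lower (7.27% of the list, against 1.81% of all genes tested, 0.686% higher and 1.13% lower), with a median difference of 0.08 against 0.00 over all genes. Between rosiglitazone and obese livers 1 was higher (1.82%, against 1.5% of all genes tested and 1.04% in that direction), with a median of −0.05 against −0.00. By limma 0 of 55 passed between resveratrol and obese livers, where 3 had an unadjusted p under 0.05, and 0 of 55 between rosiglitazone and resveratrol livers, where 4 did.

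**Figure D4:**
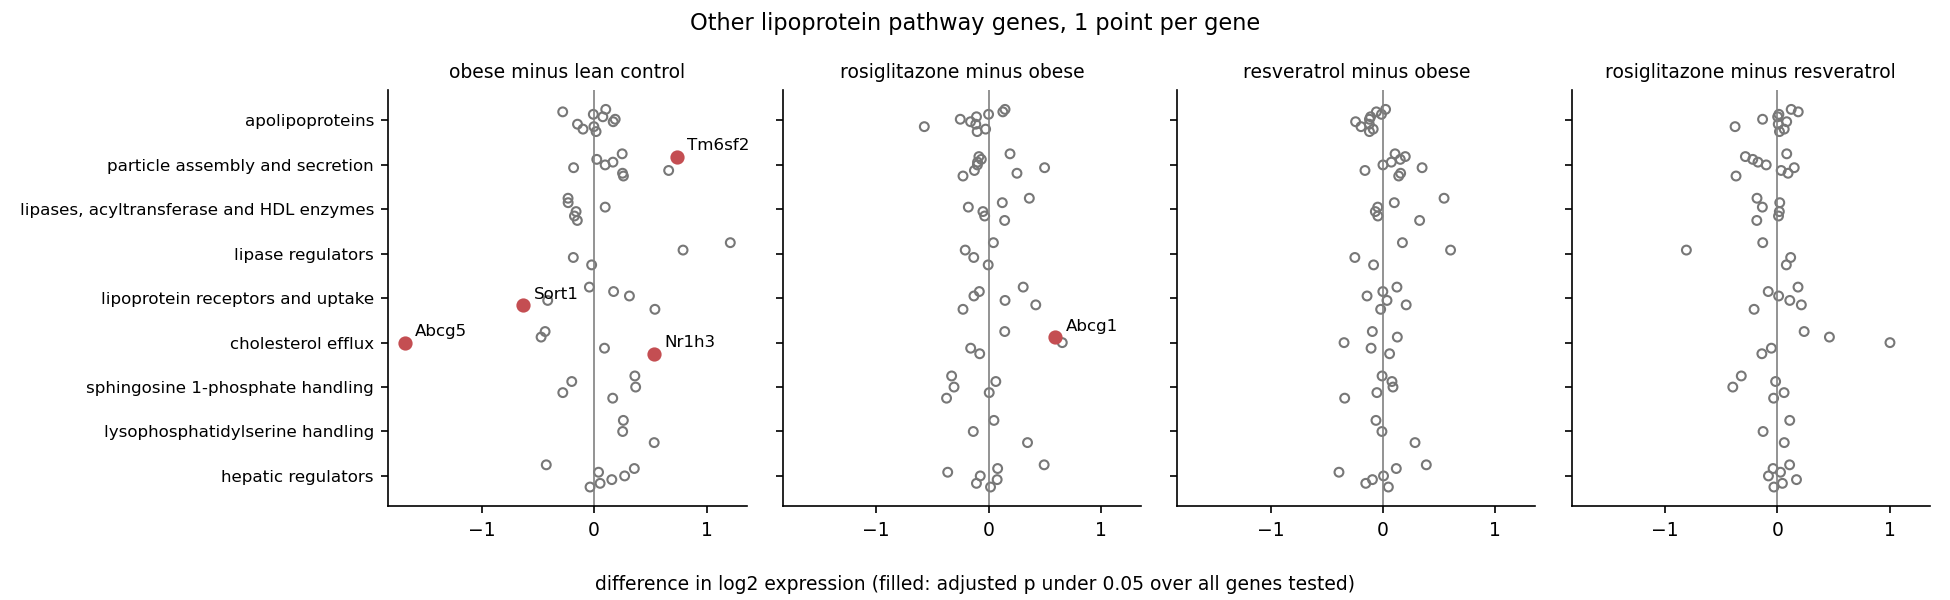
Difference in log2 expression (x axis) of 55 tested genes of lipoprotein metabolism by role (y axis) in 4 comparisons, with 1 point per gene. Filled points passed at an adjusted p under 0.05 over all genes tested: Tm6sf2, Sort1, Abcg5 and Nr1h3 between obese and lean livers and Abcg1 between rosiglitazone and obese livers.

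None of the 10 other tested apolipoproteins passed in any of the 4 comparisons, and their median difference between rosiglitazone and obese livers was −0.10. Of the 12 listed, Apoa1 and Apoc3 had no probe set with that symbol alone, so nothing is known of them here. Apob, the structural protein of very low density lipoprotein, was 10.37 ± 0.11 in rosiglitazone, 10.37 ± 0.08 in obese and 10.38 ± 0.05 in lean livers. The lipoprotein lipase activator Apoc2 (10.03 ± 0.21 against 10.28 ± 0.16, difference −0.25, SE 0.11, adjusted p = 0.323) and Apof, an inhibitor of lipid transfer (difference −0.57, SE 0.31, adjusted p = 0.493), had the smallest p of this group, both between rosiglitazone and obese livers.

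Among the genes of particle assembly, Tm6sf2, which promotes the lipidation of very low density lipoprotein, was higher in obese livers (6.70 ± 0.23 against 5.97 ± 0.47, difference 0.74, SE 0.18, limma adjusted p = 0.0308). With 6.67, lean control rat 3 fell in the obese range, while the other lean rats lay between 5.33 and 5.98. Without that rat the difference was 0.91 (adjusted p = 0.00142). The call was lost without any of lean control rats 1, 2, 4 or 5 or obese rats 1, 3 or 5, with only the compared groups in the fit and with the clock score as a covariate (adjusted p of up to 0.104). Mttp, which loads triglyceride onto Apob, did not pass (0.25, SE 0.17, adjusted p = 0.478).

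Of 6 tested receptors and sorting proteins, Sort1, a sorting receptor that binds Apob-containing particles in hepatocytes, was lower in obese livers. It was 4.26 ± 0.21 in obese against 4.89 ± 0.22 in lean livers (difference −0.63, SE 0.14, adjusted p = 0.0251), and the ranges did not overlap. The call was lost without lean control rats 2 or 4, without obese rats 2, 3 or 4 and with only the compared groups in the fit (adjusted p of up to 0.0818). The heparan sulphate proteoglycan Sdc1, which takes up remnant particles in liver, was 0.54 higher in obese livers without passing (SE 0.14, adjusted p = 0.0514), and passed without lean control rat 3 (0.63, adjusted p = 0.0120). Without that rat 517 of all genes tested passed between obese and lean livers, against 172 with all rats.

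The group named for cholesterol efflux held 3 of the 5 genes that passed. Abcg5, one partner of the canalicular transporter that secretes sterols into bile, was 4.41 ± 0.27 in obese against 6.10 ± 0.94 in lean livers (difference −1.69, SE 0.42, adjusted p = 0.0368). Here too lean control rat 3, at 4.53, lay in the obese range of 4.15 to 4.79, and the other lean rats lay at 6.04 or above. Without it the difference was −2.08 (adjusted p = 0.00240), and the call was lost without any other rat of these groups, with only these groups in the fit and with the clock score (adjusted p of up to 0.106). Nr1h3, the oxysterol receptor LXRalpha, which is known to induce Pltp and the ABC transporters, was higher in obese livers (7.69 ± 0.28 against 7.16 ± 0.18, difference 0.53, SE 0.13, adjusted p = 0.0384). Its call was lost without lean control rats 1, 2, 4 or 5 or obese rats 1, 4 or 5. The call was also lost with no filter, with only the compared groups and with the clock score (adjusted p of up to 0.105).

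Abcg1, which moves cholesterol from cells to HDL and is abundant in macrophages, was the list gene that passed with rosiglitazone. It was 4.45 ± 0.18 in rosiglitazone against 3.86 ± 0.20 in obese livers (difference 0.59, SE 0.15, adjusted p = 0.0424), and the ranges did not overlap (4.18 to 4.58 against 3.57 to 4.09). Lean control rats spanned 3.85 to 4.80. The call was lost with no filter, with median-centred arrays, with the replicate number as a block, and without rosiglitazone rats 1, 3, 4 or 5 or obese rats 1, 2, 3 or 4 (adjusted p of up to 0.104). The macrophage markers that were higher in rosiglitazone livers are given above, and their part in Abcg1 was not tested.

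**Figure D5:**
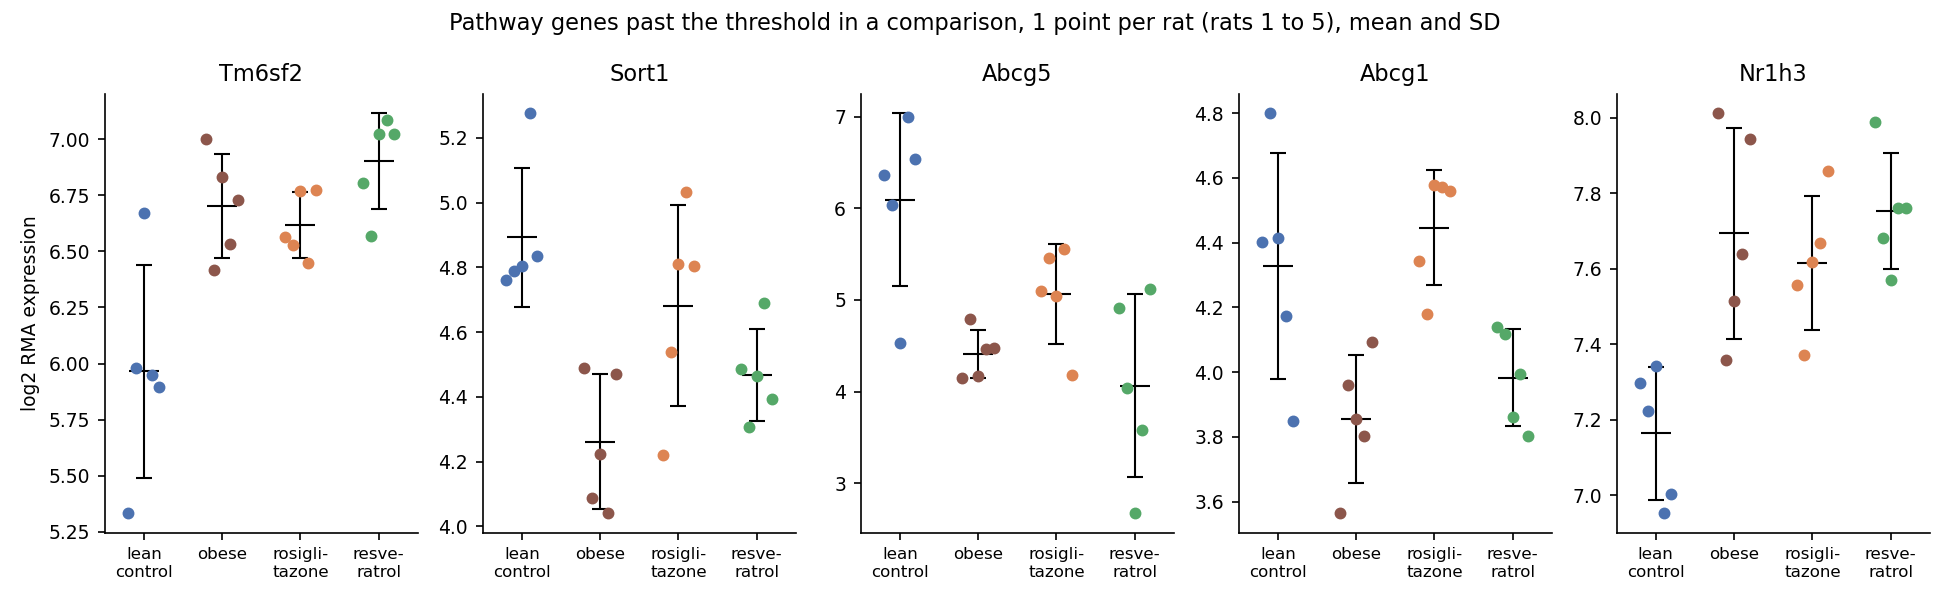
Log2 expression (y axis, a separate scale for each gene) of the 5 list genes that passed in a comparison, with 1 point per rat in 4 groups (x axis) and the mean and SD as a bar (n = 5 rats). Lean control rat 3 lies with the obese rats for Tm6sf2 (6.67) and Abcg5 (4.53) and with the other lean rats for Sort1 (4.81).

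The 6 tested lipases and HDL enzymes (of 8 listed) beside Lipc and Pla1a did not pass in any comparison. Lpl, lipoprotein lipase, which is low in adult liver, had its smallest p between resveratrol and obese livers (3.95 ± 0.31 against 3.41 ± 0.30, difference 0.54, SE 0.19, adjusted p = 0.799), and the lysosomal lipase Lipa had its smallest between obese and lean livers (−0.23, SE 0.13, adjusted p = 0.368). Of the lipase regulators, Angptl4, an inhibitor of lipoprotein lipase, was 6.92 ± 0.78 in obese against 5.71 ± 1.46 in lean livers (difference 1.21, SE 0.49, adjusted p = 0.196), and passed without lean control rat 3 (1.74, SE 0.41, adjusted p = 0.0170). That fit called 517 of all genes tested, against 172 with all rats. Angptl8, a feeding-induced partner in lipase inhibition, differed by −0.81 (SE 0.37, adjusted p = 0.397) between rosiglitazone and resveratrol livers.

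Genes that handle the lipids made or carried by Pla1a and Apom did not pass either. In the sphingosine 1-phosphate group the receptors S1pr3 (−0.37, SE 0.20, adjusted p = 0.463, rosiglitazone against obese livers) and S1pr1 (−0.40, SE 0.21, adjusted p = 0.481, rosiglitazone against resveratrol livers) had the smallest p of 5 genes tested. In the lysophosphatidylserine group 3 of 6 genes were tested and the receptors Gpr34, P2ry10 and Gpr174 lay below the filter. Abhd16a, a phosphatidylserine lipase (0.26, SE 0.10, adjusted p = 0.187), and the lipid hydrolase Abhd6 (0.53, SE 0.23, adjusted p = 0.214) differed between obese and lean livers without passing, and Abhd6 passed without lean control rat 3 (0.75, adjusted p = 0.0317). Over all genes tested, 517 passed in that fit, against 172 with all rats. Of 7 tested hepatic regulators none passed. Nr5a2, a nuclear receptor known to act on Apom in hepatic cells, differed by −0.39 (SE 0.16, adjusted p = 0.915) between resveratrol and obese livers. Between rosiglitazone and obese livers, where Apom was higher, Nr5a2 differed by −0.36 (SE 0.16, limma adjusted p = 0.378), and its part in Apom was not tested. In that comparison Foxa1 differed by 0.49 (SE 0.23, adjusted p = 0.392). Creb3l3, a hepatic factor that induces Apoa4 in mice, differed there by −0.07 (SE 0.13, adjusted p = 0.899).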

How the data were processed

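Liver RNA of 20 rats was measured on 1 Affymetrix Rat Gene 2.1 ST array each. The deposited log2 values of 36685 probe sets were made by the authors with RMA (background correction, quantile normalisation and 1 summary value per probe set), whose version is not stated in the sources read. No detection call was used. Precision is limited by the number of arrays.

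Symbols came from the platform annotation. Of the probe sets, 14824 had 1 symbol, 829 had several and were not used, and 21032 were unnamed here. Where several probe sets carried a symbol (234 genes), the brightest on average was kept. A gene was tested if it lay above its array's median in at least 5 arrays (9481 of 14557 genes). Group means were fitted with limma 3.58.1 in R 4.3.3 over all 20 arrays with no covariate, two-sided, with Benjamini-Hochberg adjustment over all genes tested and a threshold of 0.05. The fit was tested on simulated data.

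The members, the pathway list and the marker lists were chosen with earlier results of these data known. The 5 members therefore carry no p-value. Named pathway genes were those that passed, and the 2 of smallest p in each role group where none passed. Apob, Mttp, Sdc1 and Creb3l3 were named outside this rule, after their values were seen. Neighbouring genes were taken after the members' values were seen. Promoter sequences and gene order came from RefSeq (assembly GRCr8). Same-numbered rats of different groups did not deviate together (correlations of deviations −0.25 to 0.25 over 30 pairs, 5 of them over 0.1), so the numbers were not taken to pair rats. Alternatives were no filter, median-centred arrays, fits to the compared groups alone, a replicate block, averaged probe sets, array weights, a covariate made from 6 clock genes, and each rat left out in turn.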

Additional observations from a re-analysis of the deposited data

Results flagged for a closer look

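In 1 of 20 gene and group sets, a single rat lay far from the other 4 of its group. Pla1a in lean control rat 3 was 3.02, while the other lean control rats lay between 4.05 and 4.41, so that the gap took up 0.746 of the group's range against a critical value of 0.71 (Dixon). By chance about 1 in 20 such sets would show this. The same rat had the highest Apoa4 of the lean group, and the cause was not tested.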

How the results depend on the processing

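The 20 differences of the 5 genes moved by less than the residual SD in all 140 refits under other settings and all 200 refits with 1 rat left out. Much of this was fixed in advance and is no sign of stability. No filter, averaged probe sets, the compared groups alone and the replicate block cannot move these differences. With 5 rats per group, leaving out 1 rat cannot move them by as much as the residual SD. The count of passing genes varied between fits. Between obese and lean livers 172 of 9481 genes passed, but 27 with only the compared groups in the fit and 59 to 517 with 1 rat left out (517 without lean control rat 3, 59 without rat 4, 61 without rat 2, 65 without rat 1, and 98, 108 and 88 without obese rats 1, 4 and 5). The 4 list genes that passed there became 0 with only the compared groups, 2 with the clock score as a covariate and 0 to 7 with 1 rat left out. Between rosiglitazone and obese livers 142 genes passed, and 69 to 129 with 1 rat left out (84, 74 and 85 without rosiglitazone rats 1, 4 and 5, and 82, 69, 80 and 80 without obese rats 2, 3, 4 and 5). The 1 list gene became 0 with no filter, 0 with arrays centred on their median, 0 with the replicate block, 2 with array weights and 0 to 1 with 1 rat left out. Between rosiglitazone and resveratrol livers 84 genes passed, and 43 to 71 with 1 rat left out (47 and 46 without rosiglitazone rats 1 and 4, 55, 45 and 43 without resveratrol rats 1, 2 and 3). Between resveratrol and obese livers 1 gene passed in every fit. Other than the call of Abcg1, the replicate block ended no call of a pathway list gene (4 between obese and lean livers), with 152, 108, 1 and 73 genes passing in the 4 comparisons. Fewer arrays lower the power of each fit with 1 rat left out, and other causes were not tested. The files hold no background signal, which leaves the size of differences of dim genes such as Pla1a uncertain.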
